A study of Mus musculus with 8 samples.

Results

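RN2, a leukaemia line of mouse myeloid cells, was compared after treatment with RVX-208 and after treatment with the solvent DMSO. The comparison used 4 of the 8 RNA-seq libraries of the study, 2 for RVX-208 and 2 for DMSO, chosen by the treatment in their labels. All genes of the deposited table entered it. The table held 20484 gene symbols, of which 9975 were kept for testing because they reached at least 1 RPKM in at least 2 of the 8 libraries. RPKM counts the reads of a gene per kilobase of transcript and scales them to the size of the library. Every group carried the same engineered lesions, the MLL-AF9 fusion and NRAS G112D as the labels spell it, on a C57BL/6J background, and all groups came from this 1 line. The other 4 libraries, 2 with OTX-015 and 2 with BBC1115, served to estimate the spread between replicates and to set levels side by side. Replicate libraries are labelled as biological replicates, with no dose or duration stated, so no level is compared between compounds at a matched dose.

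BET proteins hold a pair of bromodomains, pockets that bind acetylated lysines on histones and transcription factors, and help to bring P-TEFb, the kinase that releases paused RNA polymerase II, to promoters and enhancers. RVX-208 (apabetalone) binds the second bromodomain in preference to the first, whereas OTX-015 (birabresib) binds both, and BBC1115 is known here only by its code name. Leukaemia cells with MLL fusions depend on BET proteins, and loss of Myc transcripts is the best known response to inhibitors that bind both bromodomains. RVX-208 was taken into clinical trials in cardiovascular disease for raising apolipoprotein A-I, the main protein of HDL.

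The reads behind each library were estimated from its smallest RPKM values, at 18100000 and 11900000 for the DMSO libraries and 10800000 and 13200000 for the RVX-208 libraries. The 4 libraries held between 9610 and 9648 genes at 1 RPKM or more. Defining genes of myeloid leukaemia cells were expressed in all 4, among them Spi1 at 135 to 158 RPKM, Mpo at 280 to 292 RPKM and Hoxa9 at 69.0 to 77.2 RPKM. DMSO library 1 stood apart from the other 3. Across the kept genes, its log2 differences from the RVX-208 libraries had SDs of 0.321 and 0.310, while those of DMSO library 2 had SDs of 0.226 and 0.228, below the SD of 0.255 between the DMSO libraries themselves. The RVX-208 libraries differed from each other with an SD of 0.189. Results that rest on DMSO library 1 are therefore given also without it.

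RVX-208 moved few genes past the spread between replicates, and most of the moves were small. In the limma test across all kept genes, 9 genes were higher with RVX-208 (0.0902%) and 8 were lower (0.0802%) at a Benjamini-Hochberg adjusted p under 0.05, 17 in all (0.17%). With the replicate number as a block, which the labels do not say pairs the cultures, 13 were higher (0.13%) and 20 lower (0.201%). At an unadjusted p under 0.05, 992 genes were higher and 828 lower. The median log2 fold change of all kept genes was 0.02 and their SD 0.22. The median 95% interval of a gene reached 0.24 to either side on the log2 scale, and the smallest called change was 0.54, so a smaller change was not detectable for most genes. Of the 17 called genes, 11 had values above 0 in all 4 libraries, 6 higher (Egr1, Zfp809, Hist1h1c, Trp53inp2, Natd1 and H1f0) and 5 lower (Ccr2, Ydjc, Gng11, Myc and Gnl3). The other 6 were listed at 0 in both libraries of 1 group. The p-values speak for the spread between these cultures, pooled over the 4 groups. An exact permutation test of 2 libraries against 2 cannot give a p below 0.333.

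**Figure D1:**
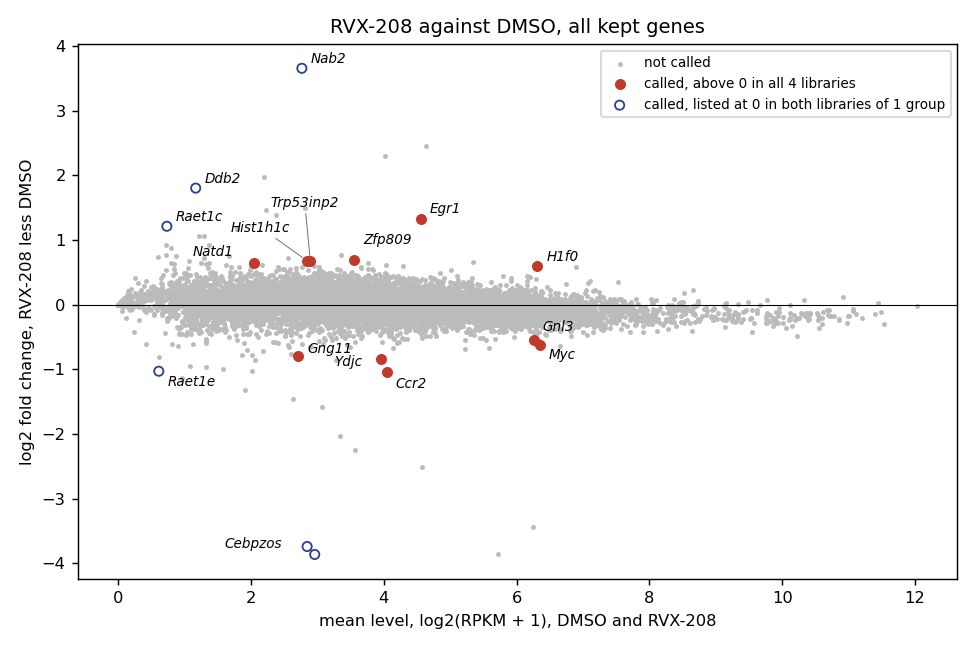
Each point is 1 of the 9975 kept genes, with its mean level in the DMSO and RVX-208 libraries, as log2(RPKM + 1), on the x axis and its log2 fold change, RVX-208 less DMSO, on the y axis. Filled red points are the 11 called genes above 0 in all 4 libraries, open blue points the 6 called genes listed at 0 in both libraries of a group, and most other points lie in a band around 0 in which the SD of all fold changes was 0.22.

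The counts moved with single libraries. Without DMSO library 2, 625 genes were higher (6.27%) and 360 lower (3.61%), and without DMSO library 1 the counts were 17 and 9. They were 4 and 11 without RVX-208 library 1, and 3 and 5 without RVX-208 library 2. Leaving out either OTX-015 library gave 3 and 3, and leaving out either BBC1115 library gave 8 and 10. Among the 11 genes above 0 throughout, only Egr1 and Ccr2 stayed called without either RVX-208 library and without either OTX-015 library. Without DMSO library 1, the adjusted p of Zfp809, Natd1, Myc, Gng11 and Ydjc lay between 0.0646 and 0.0884. Over the 20 alternatives, Natd1 lost its call in 12, Myc, Gnl3 and Ydjc in 11 each, Zfp809 and Gng11 in 10 each, Trp53inp2 in 7, and H1f0 and Hist1h1c in 6 each.

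Egr1 had the strongest call among genes above 0 in every library. It encodes an immediate early zinc-finger transcription factor that growth factor and RAS to ERK signals induce, and it lies at chr18:34859823-34864984 on the plus strand of mm10. Its level was 12.1 and 12.6 RPKM in the DMSO libraries and 32.9 and 32.2 RPKM in the RVX-208 libraries. The groups did not overlap, and the libraries of a group lay within 1 RPKM of each other. Groups without overlap were common: both RVX-208 libraries lay above both DMSO libraries in 30.3% of kept genes and below in 25.9%. Egr1 rose 2.63-fold, a log2 fold change of 1.33 with a 95% interval of 1.15 to 1.5 (adjusted p = 8.03e-06, limma). Over 20 alternative settings its log2 fold change ran from 1.11 to 1.46 and its adjusted p never exceeded 0.00892. The same transcript stood at 178 and 165 RPKM with OTX-015 and at 303 and 311 RPKM with BBC1115.

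Other genes of the EGR circuit were lower in level or were read less surely. Egr3 was at 0.927 and 1.196 RPKM in DMSO and at 2.17 and 1.90 RPKM in RVX-208. Its groups did not overlap, but the log2 fold change of 0.56 (95% interval 0.31 to 0.81) did not pass the test (adjusted p = 0.102). With the other compounds Egr3 lay between those levels, at 1.40 and 1.44 RPKM with OTX-015 and 1.34 and 1.38 RPKM with BBC1115. Egr2 stayed between 0.189 and 0.465 RPKM and Egr4 between 0.110 and 0.226 RPKM in the 4 libraries. Nab1, which encodes a co-repressor that binds EGR proteins, was at 18.5 and 19.3 RPKM in DMSO and at 20.8 and 19.9 RPKM in RVX-208. Its sister gene Nab2 is listed at 0 in both DMSO libraries and is described with the other genes listed at 0.

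A pair of linker histone genes rose. H1f0 encodes H1.0, the replication-independent linker histone that accumulates in resting and differentiated cells, and it lies at chr15:79028450-79030504. It was at 62.8 and 61.4 RPKM in DMSO and at 94.9 and 93.8 RPKM in RVX-208, groups that did not overlap. H1f0 rose 1.52-fold (log2 fold change 0.60, 95% interval 0.40 to 0.79, adjusted p = 0.0333). Hist1h1c, at chr13:23738808-23740367, encodes another linker histone, H1.2. Its level of 4.71 and 4.30 RPKM in DMSO became 7.71 and 7.92 RPKM in RVX-208, a rise of 1.73-fold (log2 fold change 0.68, 95% interval 0.48 to 0.88, adjusted p = 0.0158). Both linker histone genes stood far higher with the other compounds, H1f0 at 311 to 473 RPKM and Hist1h1c at 29.95 to 32.1 RPKM. Transcripts of replication-dependent histone genes mostly lack a poly(A) tail, and the kit of these libraries is made for mRNA. Of 63 kept histone genes these 2 were called higher (3.17%, against 0.0902% of all kept genes). In 18 both RVX-208 libraries lay above both DMSO libraries (28.6%, against 30.3% of all kept genes).

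The other genes that rose have varied functions. Trp53inp2, at chr2:155381059-155389850, encodes a protein of autophagy that also acts as a nuclear receptor coactivator. It was at 4.65 and 4.79 RPKM in DMSO and at 8.39 and 7.86 RPKM in RVX-208, and rose 1.72-fold (log2 fold change 0.67, 95% interval 0.46 to 0.89, adjusted p = 0.0333). Zfp809, at chr9:22225714-22243354, encodes a zinc-finger protein that silences endogenous retroviruses in mouse stem cells. Its values were 7.23 and 8.78 RPKM in DMSO and 14.0 and 12.8 RPKM in RVX-208, and it rose 1.68-fold (log2 fold change 0.68, 95% interval 0.44 to 0.92, adjusted p = 0.0394). Among the 11 genes above 0 throughout, Zfp809 was the one whose level with RVX-208 lay nearest to that with the other compounds: it was at 16.5 and 15.4 RPKM with OTX-015 and at 14.6 and 16.1 RPKM with BBC1115. The test of RVX-208 less OTX-015, in which 55.7% of kept genes were called, gave Zfp809 a log2 difference of -0.24 (adjusted p = 0.0871), and that of RVX-208 less BBC1115, in which 73.5% were called, gave -0.18 (adjusted p = 0.155). A missed threshold does not show that the levels are alike. Natd1, at chr11:60902246-60914750 on the minus strand, was at 2.13 and 2.27 RPKM in DMSO and at 3.78 and 4.24 RPKM in RVX-208. It rose 1.82-fold (log2 fold change 0.64, 95% interval 0.42 to 0.87, adjusted p = 0.0413).

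The promoters of the called genes were searched for short motifs to show what sequence lies before genes that moved together, with RefSeq windows on GRCm38.p6 that run from 250 bases before each gene's start to 50 after it. Windows were found for 6 of the 11 genes above 0 throughout. Of 32544 windows, searched on both strands, 7.2% held the E-box CACGTG, a site that MYC binds with its partner MAX. The CCAAT box stood in 37.4% of them and the TATA box, searched as TATAAA, in 13.6%. The GC box of SP factors, searched as GGGCGG, stood in 35.9%. The H1 box of linker histone promoters, AAACACA, stood in 7.2%, and a site of the myeloid factor PU.1, GAGGAAGT, in 3.1%. These shares are of whole windows, whereas the stretches printed here are shorter, 88 to 250 bases. The shares are therefore not a matched background for the hits or absences in those stretches. The stretches before the RefSeq starts of 3 genes that rose and of Gnl3, which fell, are printed 5′ to 3′ on the gene's strand with motifs in capitals, trimmed where a window runs into annotated exons: Trp53inp2 at chr2:155381606-155381813 (plus strand), Natd1 at chr11:60913813-60914042 (minus strand), H1f0 at chr15:79027962-79028211 (plus strand) and Gnl3 at chr14:31019294-31019381 (minus strand). These starts differ from the outer ends of the gene spans given with the values, so the stretches of Trp53inp2 and Natd1 lie inside those spans and the stretches of H1f0 and Gnl3 before them.
Trp53inp2: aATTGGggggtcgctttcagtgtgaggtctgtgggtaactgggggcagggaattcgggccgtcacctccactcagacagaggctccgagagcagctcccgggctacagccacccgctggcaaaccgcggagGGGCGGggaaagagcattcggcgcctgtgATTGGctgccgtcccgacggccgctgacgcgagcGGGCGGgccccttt
Natd1: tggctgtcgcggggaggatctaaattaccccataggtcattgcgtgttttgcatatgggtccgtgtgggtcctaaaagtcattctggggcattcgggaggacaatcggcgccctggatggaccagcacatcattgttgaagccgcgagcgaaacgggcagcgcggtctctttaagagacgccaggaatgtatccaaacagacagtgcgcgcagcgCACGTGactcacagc
H1f0: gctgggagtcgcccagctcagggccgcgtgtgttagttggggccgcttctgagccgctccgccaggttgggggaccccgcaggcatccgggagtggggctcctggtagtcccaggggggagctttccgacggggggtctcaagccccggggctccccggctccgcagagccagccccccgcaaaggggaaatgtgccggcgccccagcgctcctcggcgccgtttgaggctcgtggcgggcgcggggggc
Gnl3: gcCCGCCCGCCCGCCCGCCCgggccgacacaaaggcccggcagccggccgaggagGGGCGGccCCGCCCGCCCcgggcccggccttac
The Trp53inp2 stretch held CCAAT, read as ATTGG, 249 and 90 bases before the start and GGGCGG 119 and 56 bases before it. Natd1 held CACGTG 35 bases before the start, and H1f0 held none of the 6 motifs in this stretch. Gnl3 held only GC boxes, 1 on its own strand, 195 bases before the start, and 6 on the other, which overlap in 2 runs. Zfp809 and Ccr2 also had windows but are not printed. Before each of its RefSeq starts Zfp809 held CCAAT, read as ATTGG, the H1 box AAACACA and the PU.1 site GAGGAAGT. Ccr2 had only 17 bases outside annotated exons. No motif of the search stood in all 4 printed stretches, GGGCGG stood in those of Trp53inp2 and Gnl3, and a match or its absence is a description of these letters only.

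Among genes that fell, Ccr2 had the strongest call. It encodes the receptor for the chemokine CCL2 that draws monocytes out of the bone marrow, and lies at chr9:124101950-124113557. The DMSO libraries held 21.2 and 20.98 RPKM and the RVX-208 libraries 10.1 and 9.52 RPKM. The groups did not overlap and the spread within each was under 1 RPKM. Ccr2 fell 2.15-fold (log2 fold change -1.03, 95% interval -1.25 to -0.81, adjusted p = 0.000952). Over the 20 alternatives its log2 fold change ran from -1.11 to -0.82 and its adjusted p reached at most 0.0412. With OTX-015 it was at 1.15 and 1.02 RPKM and with BBC1115 at 0.929 and 0.936 RPKM. In bulk RNA, fewer cells that express a gene and less RNA per cell cannot be told apart.

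Myc fell, and so did Gnl3, a MYC target of ribosome biogenesis. Myc encodes the transcription factor that drives growth and ribosome production and lies at chr15:61985391-61990374. It was at 99.7 and 95.9 RPKM in DMSO and at 64.2 and 62.3 RPKM in RVX-208, and fell 1.55-fold (log2 fold change -0.62, 95% interval -0.83 to -0.42, adjusted p = 0.0355). Its groups lay more than 30 RPKM apart, and with the other compounds it was at 2.26 to 3.75 RPKM. Gnl3, at chr14:31012433-31019152, encodes nucleostemin, a nucleolar GTPase and MYC target. Gnl3 went from 86.8 and 92.1 RPKM to 60.6 and 61.8 RPKM, a fall of 1.46-fold (log2 fold change -0.54, 95% interval -0.72 to -0.35, adjusted p = 0.037). Snord19 and Snord69, small nucleolar RNAs that share exons with it on the same strand, could share its reads. Over the alternatives the adjusted p of Myc and Gnl3 reached 0.218 and 0.252, while the log2 fold change of Myc stayed between -0.65 and -0.53 and that of Gnl3 between -0.60 and -0.45.

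Gng11 and Ydjc complete the genes that fell. Gng11, at chr6:4003904-4008445, encodes a gamma subunit of heterotrimeric G proteins. It was at 7.61 and 6.95 RPKM in DMSO and at 3.67 and 3.85 RPKM in RVX-208, and fell 1.94-fold (log2 fold change -0.80, 95% interval -1.07 to -0.53, adjusted p = 0.037). Gng11 was the called gene that fell whose OTX-015 level, 2.54 and 2.02 RPKM, lay nearest to its RVX-208 level. Ydjc, at chr16:17144621-17160701, encodes a predicted carbohydrate deacetylase. Ydjc went from 20.1 and 17.9 RPKM to 10.8 and 9.59 RPKM, a fall of 1.86-fold (log2 fold change -0.83, 95% interval -1.12 to -0.55, adjusted p = 0.0373). Its exons share 1969 nucleotides with Ccdc116 and Ube2l3 on the other strand, so its value is uncertain unless the authors' counting used strand, which no source used here states.

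**Figure D2:**
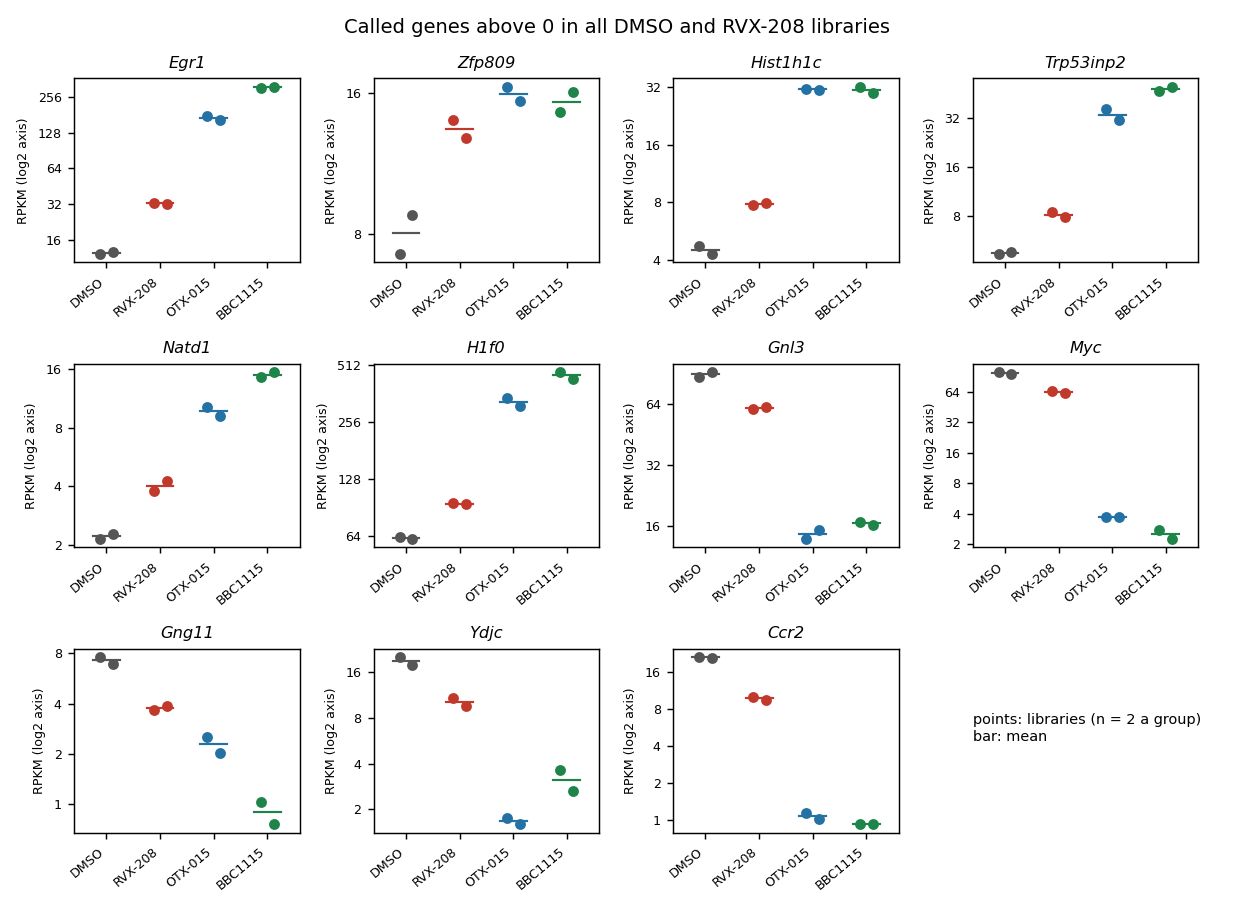
Each panel shows 1 of the 11 called genes above 0 in all DMSO and RVX-208 libraries, with points for the 2 libraries of each group, bars for their means and RPKM on a log2 axis. These genes were chosen by their calls, so the separation of RVX-208 from DMSO points in every panel is no further support. Of all kept genes, 30.3% had both RVX-208 libraries above both DMSO libraries and 25.9% had both below. Except for Zfp809 and Gng11 the RVX-208 points lie nearer to DMSO on this axis than to either other compound.

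The other 6 called genes were listed at 0 in both libraries of 1 group, and no fold is given for them. Values are given for 5 of them. Nab2, the EGR co-repressor gene that EGR1 itself induces, was listed at 0 in both DMSO libraries and at 11.2 and 11.9 RPKM in RVX-208, 23.8 and 22.6 RPKM in OTX-015 and 30.9 and 27.9 RPKM in BBC1115. Ddb2, which encodes a protein that recognises DNA damage by ultraviolet light, was listed at 0 in DMSO and at 2.55 and 2.43 RPKM in RVX-208. Cebpzos was at 12.9 and 11.8 RPKM in DMSO, listed at 0 in RVX-208 and at 8.51 to 9.62 RPKM with the other compounds. Nab2, Ddb2 and Cebpzos each share exon sequence with a protein-coding neighbour on the other strand. Raet1c and Raet1e, near-identical genes for ligands of the receptor NKG2D, moved in opposite directions: Raet1c was listed at 0 in DMSO and at 1.45 and 1.19 RPKM in RVX-208, and Raet1e was at 0.841 and 1.26 RPKM in DMSO and listed at 0 in RVX-208. Their sister Raet1d was at 1.16 and 1.78 RPKM in DMSO and at 1.69 and 1.17 RPKM in RVX-208, so its groups overlapped. Reads may be split between such near-identical genes, so these values are uncertain.

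Such zeros were found in all groups. Of the kept genes, 45 were at 0 in both libraries of a group and at 5 RPKM or more in both of another. Of these, 42 (93.3%) shared exons with another protein-coding gene, against 2181 of the 9738 kept genes matched in the annotation (22.4%). Rpl34 and Rps27, genes of the ribosome that every cell uses, were listed at 0 in every library. Whether the 6 zeros are absent transcripts or failed estimates cannot be told apart from RPKM. A neighbour showed no such switch: Stat6, which overlaps Nab2, was at 37.2 and 41.1 RPKM in DMSO and at 38.7 and 37.6 RPKM in RVX-208.

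Most genes of a panel that BET inhibitors are known to move, or that mark this leukaemia, did not pass the test with RVX-208. Hexim1, which encodes an inhibitor of P-TEFb and is a common marker of BET inhibition, was at 23.9 and 22.7 RPKM in DMSO and at 29.7 and 30.8 RPKM in RVX-208. The groups did not overlap, and the log2 fold change was 0.36 (95% interval 0.17 to 0.55, adjusted p = 0.123). With OTX-015 and BBC1115 it was at 116 to 196 RPKM. Gfi1, a transcriptional repressor gene of myeloid progenitors, was at 46.7 and 47.5 RPKM in DMSO and at 36.6 and 36.8 RPKM in RVX-208 (log2 fold change -0.35, 95% interval -0.55 to -0.16, adjusted p = 0.13). Its level with the other compounds was 0.978 to 6.42 RPKM. Both genes passed the test once the trend with gene length described with the gene groups was removed.

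Brd2 and Brd3, which encode BET proteins, did not pass the test. Brd2 was at 63.9 and 71.7 RPKM in DMSO and at 79.3 and 79.6 RPKM in RVX-208 (log2 fold change 0.23, 95% interval 0.03 to 0.42, adjusted p = 0.227). For Brd3 the log2 fold change was 0.18 (95% interval -0.06 to 0.42). The groups of Brd2 did not overlap, and the nearer DMSO library was library 2.

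Other panel genes tied to MLL-rearranged leukaemia did not pass the test. Myb, a master regulator of leukaemic self-renewal, was at 273 and 275 RPKM in DMSO and at 249 and 244 RPKM in RVX-208 (log2 fold change -0.15, 95% interval -0.33 to 0.02). With OTX-015 Myb was at 96.6 and 88.7 RPKM and with BBC1115 at 23.0 and 21.9 RPKM. Cdk6, a cell cycle kinase gene that these leukaemias need, had a log2 fold change of 0.14 (95% interval -0.13 to 0.40). Its DMSO libraries, at 66.5 and 86.9 RPKM, lay on either side of its RVX-208 libraries, at 82.9 and 84.6 RPKM. Kit had a log2 fold change of -0.15 (95% interval -0.37 to 0.07), Meis1 of 0.24 (0.04 to 0.44, with groups that did not overlap), Hoxa9 of -0.06 (-0.26 to 0.15) and Bcl2 of 0.01 (-0.21 to 0.24). The myeloid maturation genes Csf1r, Itgam and Mpo had log2 fold changes of -0.07, 0.09 and -0.05, and Cdkn1a, which encodes the cell cycle inhibitor p21, had 0.08. Serpini1, a gene that rises with many BET inhibitors, was under 0.2 RPKM in all 4 libraries, and Apoa1, which encodes apolipoprotein A-I, was listed at 0 in all 8.

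**Figure D3:**
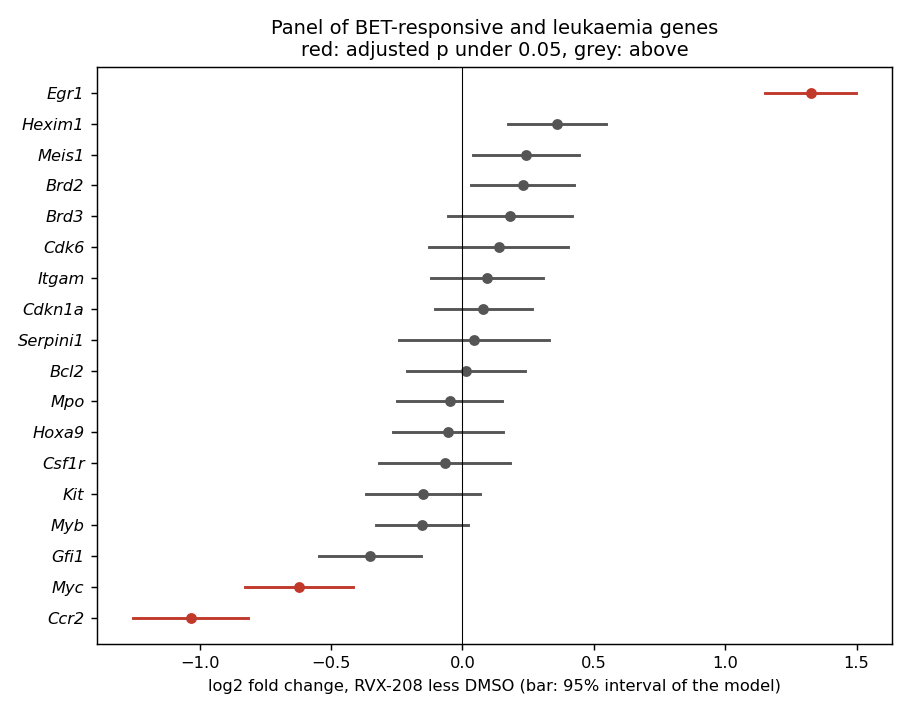
Each row is 1 gene of the panel with its log2 fold change, RVX-208 less DMSO, as a point and the 95% interval of the limma model as a bar. Egr1, Myc and Ccr2, in red, passed the adjusted threshold, and the other 15, in grey, lay between -0.35 and 0.36.

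Gene lists were described by their members called, the members whose groups did not overlap and their median, since no test of a list was made. The shares called over all kept genes were 0.0902% higher and 0.0802% lower. Of all kept genes, 30.3% had both RVX-208 libraries above both DMSO libraries and 25.9% had both below. Genes that BET inhibitors are known to raise were higher as a list than kept genes in general. Of its 15 kept members 2 were called higher (13.3%), H1f0 and Hist1h1c. In 13 both RVX-208 libraries lay above both DMSO libraries (86.7%), and in 0 both lay below. Their median log2 fold change was 0.29, at 0.28 against DMSO library 1 alone and 0.34 against library 2 alone. Members without a call were Hist1h2bc, at 9.36 and 9.80 RPKM in DMSO and 13.8 and 17.3 RPKM in RVX-208 (log2 fold change 0.64, adjusted p = 0.0953), and the antiproliferative genes Btg2 (log2 fold change 0.45, adjusted p = 0.123) and Tob1 (0.42, adjusted p = 0.123).

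Of 20 kept genes that BET inhibitors are known to lower, 2 were called lower (10%), Ccr2 and Myc. In 13 both libraries lay below (65.0%), and in 0 both lay above. Their median was -0.15, at -0.11 against DMSO library 1 and -0.17 against library 2. Tfap4, a MYC-induced transcription factor gene, was at 12.2 and 11.2 RPKM in DMSO and at 8.74 and 7.59 RPKM in RVX-208 (log2 fold change -0.47, adjusted p = 0.125). Cdk6, Ccnd2, Ikzf1 and Bcl2 of the same list had log2 fold changes of 0.14, 0.16, 0.05 and 0.01. The list therefore held members of both signs.

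Ribosome biogenesis and MYC target genes had a median of -0.23, at -0.25 against DMSO library 1 and -0.22 against library 2. Of 59 kept members, 1 was called lower (1.69%), Gnl3. In 49 both RVX-208 libraries lay below both DMSO libraries (83.1%), and in 0 both lay above. Srm, spermidine synthase and a direct MYC target, was at 128 and 115 RPKM in DMSO and at 76.3 and 79.3 RPKM in RVX-208, and just missed the threshold (log2 fold change -0.64, adjusted p = 0.0508). Dkc1, which encodes the pseudouridine synthase dyskerin, went from 74.6 and 75.3 RPKM to 56.6 and 58.5 RPKM (log2 fold change -0.37, adjusted p = 0.102), and Nop56, of the box C/D snoRNP, from 179 and 169 RPKM to 134 RPKM in each RVX-208 library (log2 fold change -0.37, adjusted p = 0.126). Polr1a, the largest subunit gene of RNA polymerase I, had a log2 fold change of 0.08 and was at 13.6 and 18.1 RPKM in DMSO and at 16.5 and 16.7 RPKM in RVX-208.

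Lower medians of ribosomal protein and respiratory chain genes depended on DMSO library 1. The 76 kept genes of cytosolic ribosomal proteins had a median of -0.20, with 0 called and 65 with both libraries below (85.5%). Against DMSO library 1 alone it was -0.34 and against library 2 alone -0.06. The 74 kept oxidative phosphorylation genes had a median of -0.18, with 0 called and 39 with both below (52.7%), and -0.33 and -0.03 against the single libraries. Between the DMSO libraries themselves, library 1 was higher by a median log2 difference of 0.28 for the ribosomal proteins and 0.30 for the oxidative phosphorylation genes. Without DMSO library 2, 9 ribosomal protein genes and 18 oxidative phosphorylation genes were called lower (3.61% of kept genes were), and without DMSO library 1, 0 of either list were called (0.0902% of kept genes were).

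**Figure D4:**
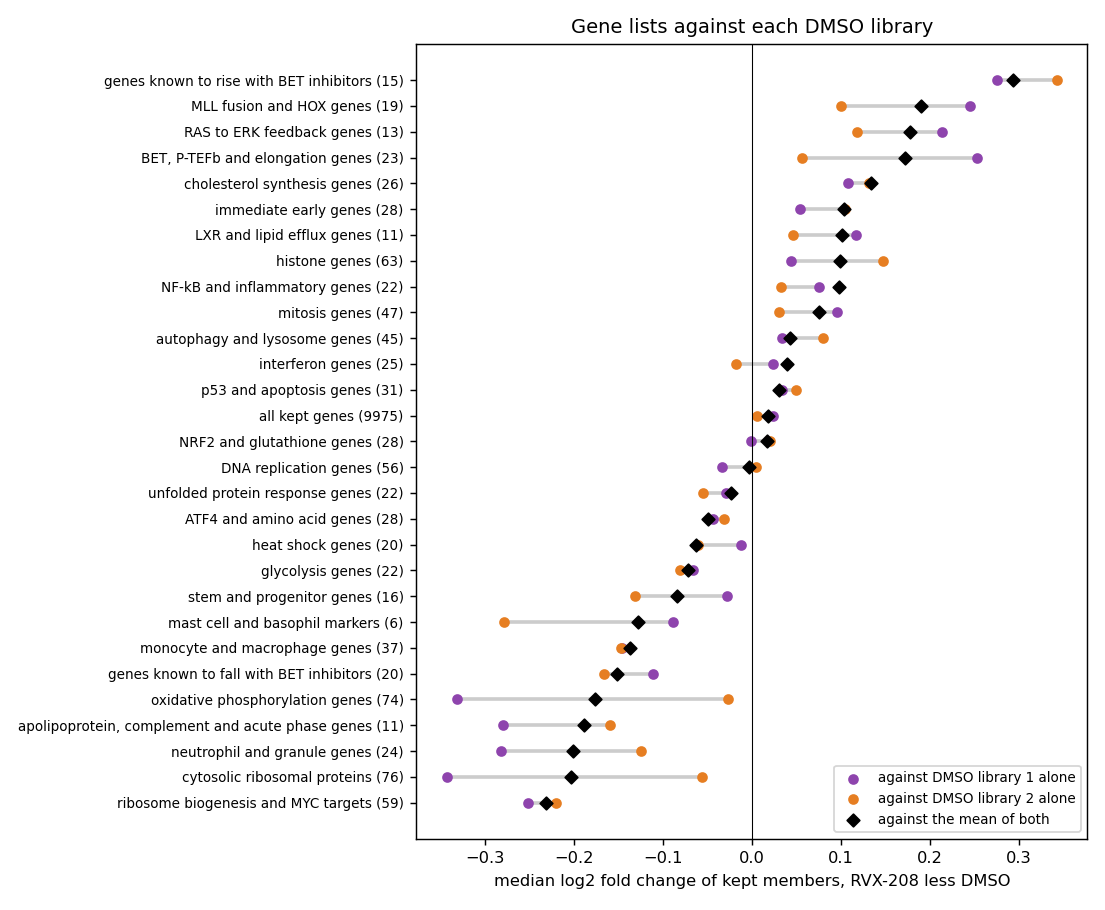
The x axis gives the median log2 fold change, RVX-208 less DMSO, of the kept members of each list with 5 or more of them (number in brackets), against DMSO library 1 alone (purple), library 2 alone (orange) and the mean of both (black). The lists at the top and bottom, genes known to rise (0.29) and ribosome biogenesis (-0.23), kept their medians against either library, while ribosomal proteins and oxidative phosphorylation moved toward 0 against library 2.

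These lists are made of short genes, and the fold change ran with gene length. Over 9738 kept genes with a matched exon length in GENCODE M21, in 5 bins of about equal size, the median log2 fold change went from -0.11 in the bin with a median of 1769 nucleotides to 0.14 in that with 9813 nucleotides. Against DMSO library 1 alone the bins ran from -0.19 to 0.23, and against library 2 alone from -0.04 to 0.05. Spearman's rho between fold change and length was 0.46 across genes, 0.56 against library 1 and 0.18 against library 2, given as a description, since genes of a library share its RNA and its preparation. The ribosomal protein genes had a median exon length of 1776 nucleotides, the oxidative phosphorylation genes 1696 nucleotides, and the ribosome biogenesis genes 3597 nucleotides, against 4474 for all kept genes. The part of length in these results was measured by removing the trend from each library, an alternative chosen after the data were seen, which left 72 genes higher (0.739%) and 109 lower (1.12%) of 9738. Of the ribosome biogenesis list 13 were then called lower, among them Gnl3, Srm, Dkc1, Nop56, Fbl and Ncl, and of the genes known to rise 7 were called higher, with Hexim1, Btg2, Tob1, Sertad1 and Hist1h2bc beside the linker histones. Of the ribosomal protein and oxidative phosphorylation lists 0 were called with the trend removed, and their medians were -0.12 and -0.06.

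**Figure D5:**
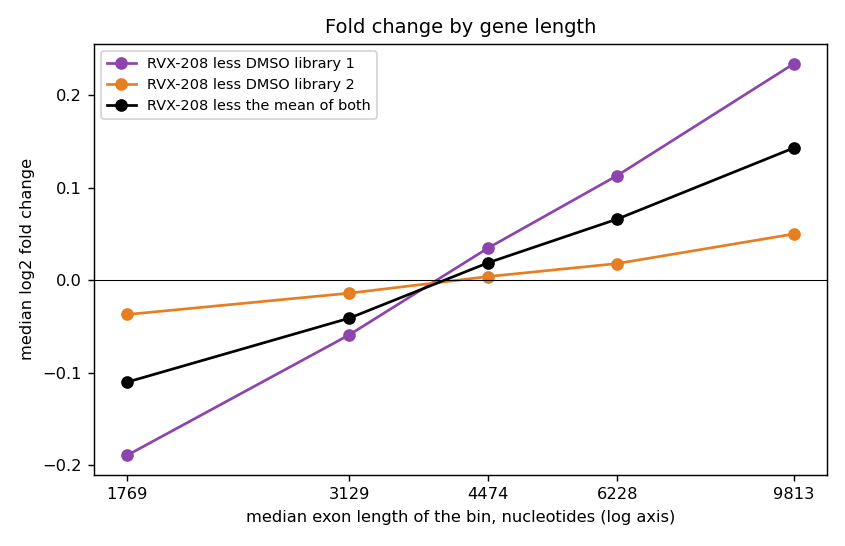
The x axis gives the median exon length of 5 bins of kept genes, in nucleotides on a log axis, and the y axis the median log2 fold change of RVX-208 less DMSO library 1 (purple), library 2 (orange) and the mean of both (black). The purple line runs from -0.19 to 0.23 and the orange line from -0.04 to 0.05, so most of the slope of the black line comes with DMSO library 1.

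Genes of BET proteins, P-TEFb and transcription elongation had a median of 0.17, with 0 of 23 called and 13 with both libraries above (56.5%). That median was 0.25 against DMSO library 1 and 0.06 against library 2. Ell2, a gene of the super elongation complex, was at 5.90 and 5.42 RPKM in DMSO and at 7.59 and 8.73 RPKM in RVX-208 (log2 fold change 0.46, adjusted p = 0.103). Ccnt1, which encodes the cyclin of P-TEFb, was at 7.59 and 13.8 RPKM in DMSO and at 14.1 and 14.3 RPKM in RVX-208, so its log2 fold change of 0.44 (95% interval -0.06 to 0.93) came with DMSO library 1.

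MLL fusion and HOX genes, a list of known targets with cofactors such as Dot1l and Men1, had a median of 0.19. Of its kept members 0 of 19 were called and 13 had both libraries above (68.4%). Their median was 0.25 against DMSO library 1 and 0.10 against library 2, and with the length trend removed it was 0.10 with Hoxa5 called higher. Hoxa5 was at 7.73 and 7.99 RPKM in DMSO and at 9.72 and 11.0 RPKM in RVX-208 (log2 fold change 0.35, adjusted p = 0.151 with the trend kept). Mllt3, the partner of MLL in this fusion, was at 25.04 and 24.5 RPKM in DMSO and at 33.6 and 31.2 RPKM in RVX-208 (log2 fold change 0.37, adjusted p = 0.123). Reads from the fusion transcript and from Mllt3 itself cannot be told apart in a value per gene.

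Of 28 kept immediate early genes only Egr1 was called (3.57%), and their median was 0.10. Both RVX-208 libraries lay above in 12 (42.9%) and below in 2. Fosl1, a subunit gene of AP-1, was at 15.91 and 15.99 RPKM in DMSO and at 12.5 RPKM in each RVX-208 library (log2 fold change -0.33, adjusted p = 0.196), and Nr4a1, Dusp1 and Ier5 had log2 fold changes between 0.01 and 0.03. Egr3 and Btg2, with log2 fold changes of 0.56 and 0.45 and groups that did not overlap, did not pass the test. Genes that RAS to ERK signalling induces as its own feedback had a median of 0.18, with 0 of 13 called and 9 with both libraries above (69.2%). Dusp6, the phosphatase that inactivates ERK, was at 61.9 and 61.3 RPKM in DMSO and at 79.8 and 79.3 RPKM in RVX-208, with a log2 fold change of 0.36 (95% interval 0.18 to 0.55, adjusted p = 0.123). Etv5, an ERK-induced transcription factor gene, was at 17.4 and 19.6 RPKM in DMSO and at 24.6 and 23.0 RPKM in RVX-208 (log2 fold change 0.35, adjusted p = 0.144). With the length trend removed, Dusp6, Egr3 and Btg2 were called higher.

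Monocyte and granulocyte genes were mostly lower without passing the test. Of 37 kept monocyte and macrophage genes 1 was called, Ccr2 (2.7%), and 22 had both libraries below (59.5%). The median of the list was -0.14, and it was -0.15 against either DMSO library. Clec4a2, a lectin receptor gene of monocytes, was at 8.25 and 7.90 RPKM in DMSO and at 4.54 and 4.94 RPKM in RVX-208 (log2 fold change -0.66, adjusted p = 0.0608). Fcgr4, a receptor gene for IgG, was at 10.2 and 9.81 RPKM in DMSO and at 6.47 and 6.56 RPKM in RVX-208 (log2 fold change -0.55, adjusted p = 0.123). Both had groups that did not overlap, while Itgam and Ncf1 of the same list had log2 fold changes of 0.09 and 0.08. Of 24 kept neutrophil and granule genes 0 were called and 18 had both libraries below (75.0%). Their median of -0.20 was -0.28 against DMSO library 1 and -0.12 against library 2, and their median exon length was 1540 nucleotides. Lcn2, which encodes the iron-binding granule protein lipocalin, went from 33.2 and 32.5 RPKM to 25.7 and 24.1 RPKM (log2 fold change -0.39, adjusted p = 0.124).

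The apolipoprotein, complement, acute phase and lipid lists held 0 called genes in these cells. Of 53 listed apolipoprotein, complement and acute phase genes only 11 were kept, 0 were called, 0 had both libraries above and 7 had both below (63.6%). Their median was -0.19, at -0.28 against DMSO library 1 and -0.16 against library 2. The median exon length of the list was 2138 nucleotides, and with the length trend removed its median log2 fold change was -0.11. F10, which encodes coagulation factor X, was at 59.2 and 59.1 RPKM in DMSO and at 39.1 and 42.6 RPKM in RVX-208 (log2 fold change -0.52, 95% interval -0.75 to -0.30, adjusted p = 0.0943). Apoe was at 5.72 and 6.29 RPKM in DMSO and at 3.47 and 4.70 RPKM in RVX-208 (log2 fold change -0.47, adjusted p = 0.148), and C3, the central complement gene, had a log2 fold change of 0.19 (95% interval -0.09 to 0.47). Cholesterol synthesis genes had a median of 0.13, against 0.02 for all kept genes, with 0 of 26 called and 16 with both libraries above (61.5%). This median was 0.11 and 0.13 against the single DMSO libraries. Lss, lanosterol synthase, was at 13.2 and 14.0 RPKM in DMSO and at 17.3 and 16.5 RPKM in RVX-208 (log2 fold change 0.30, adjusted p = 0.164). LXR and lipid efflux genes had a median of 0.10 with 0 of 11 called.

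Among the 5 uncalled genes with the smallest p in each direction were Cnnm4 (adjusted p = 0.0508), Ap3m2 (0.0577), and Slc25a14 and Dhx40 (0.0916 each) among higher genes, and Gstm5 (0.0597), Slc16a1 (0.0642) and Chdh (0.0734) among lower ones. Slc16a1, which encodes the lactate transporter MCT1, was at 20.8 and 19.2 RPKM in DMSO and at 13.6 and 13.5 RPKM in RVX-208, yet at 33.6 and 29.8 RPKM with BBC1115. Gstm5, a glutathione transferase gene, was at 3.48 and 3.99 RPKM in DMSO and at 1.70 and 2.13 RPKM in RVX-208, and at 2.44 to 2.98 RPKM with the other compounds. In both genes, RVX-208 had the lowest libraries of the 8. Slc25a14, a mitochondrial carrier gene, was at 3.14 and 3.38 RPKM in DMSO, 5.09 and 5.06 RPKM in RVX-208, 5.40 and 5.34 RPKM in OTX-015 and 3.95 and 3.80 RPKM in BBC1115.

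Set beside the other compounds, whose contrasts with DMSO share the same DMSO libraries, RVX-208 left most called genes close to DMSO. In the direct test of RVX-208 less OTX-015, Egr1 differed by -2.36, H1f0 by -1.78, Myc by 3.76 and Ccr2 by 2.37 on the log2 scale, with adjusted p between 1.25e-09 and 7.83e-08. In that of RVX-208 less BBC1115, the same genes differed by -3.20, -2.25, 4.2 and 2.48. Panel genes without a call against DMSO also differed from the other compounds: Cdk6 was higher with RVX-208 than with OTX-015 by 2.10, Gfi1 by 2.39, Csf1r by 2.16 and Kit by 1.57 (adjusted p at most 4.44e-07). Brd3 did not pass against OTX-015 (log2 difference 0.22, adjusted p = 0.0962) but passed against BBC1115 (0.42, adjusted p = 0.00445). Meis1 did not pass against BBC1115 (0.02, adjusted p = 0.886) but passed against OTX-015 (-0.33, adjusted p = 0.0105). Since no dose or time is given, these are differences between the cultures as treated.

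Markers of other cell types were listed at 0 or summed to low levels in some lists and not in others. Cd3e, Cd3g and Cd4 of T cells, Ms4a1 and Pax5 of B cells, and Col1a2 and Col3a1 of fibroblasts were listed at 0 in all 8 libraries, which does not show absence in a table that also lists Rpl34 and Rps27 at 0. Summed over the 16 T and NK cell markers in the table, of which 1 was kept, the level was 5.41 and 3.28 RPKM in DMSO and 2.08 and 2.61 RPKM in RVX-208. The 14 mast cell and basophil markers, of which 6 were kept and 4 were at 0 throughout, summed to 107 and 103 RPKM in DMSO and to 90.0 and 93.9 RPKM in RVX-208. The 9 eosinophil markers summed to 2.07 and 2.31 RPKM in DMSO and to 1.15 and 1.29 RPKM in RVX-208, and the 10 B cell markers to 1.497 and 1.34 RPKM and to 0.904 and 1.09 RPKM. The 18 erythroid and megakaryocyte markers, of which Tfrc alone was kept, summed to 107 and 119 RPKM in DMSO and to 101 and 98.0 RPKM in RVX-208. The 14 fibroblast and stroma markers, with Pdgfrb and Pecam1 kept, summed to 54.3 and 62.3 RPKM and to 64.4 and 63.0 RPKM. In all 6 lists 0 genes were called, and the part of these sums in the myeloid gene results was not tested.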

How the data were processed

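RNA of RN2 cells was sequenced with the NEXTflex Rapid Directional mRNA-seq kit, per the labels' protocols. The authors deposited 1 table of RPKM per gene and library, and STAR, Cufflinks and mm10 are named in the submitters' processing notes. No source used here gives their versions, the annotation or a further scaling. Depth was estimated from genes with 1 annotated transcript, more than 2500 exon nucleotides and a value above 0 and under 0.15 RPKM. For each gene the depth at which its value would be 1 read was computed, and the commonest such depth was taken. The table had 8 columns of libraries, 0 of them unused.

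Samples were grouped by the labelled treatment, 4 groups of 2. Genes at 1 RPKM or more in at least 2 libraries were kept. log2(RPKM + 1) of all 8 libraries was fitted with limma 3.58.1 in R 4.3.3, with 1 mean per group, a variance trend, and 4 residual and 6.81 prior degrees of freedom. Two-sided p-values were adjusted over all kept genes (Benjamini-Hochberg) and called below 0.05. Every adjusted p and 95% interval comes from this fit, whose pseudocount of 1 shrinks log2 fold changes of low genes. A fold is the ratio of mean RPKM. The scripts were tested on simulated data. A few genes that the rules would name are not reported here.

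The members, the panel and the 33 gene lists were chosen with earlier results of these data known. Named genes are a panel of 20 and the 12 largest called changes in each direction at a mean of 5 RPKM or more in a group with no overlap. Up to 4 called members of each list and the 5 smallest p-values not called in each direction were added. Natd1, Ddb2, Raet1c, Raet1e and the uncalled members of lists given as examples were chosen after their values were seen.

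GENCODE M21 (GRCm38, the same assembly as mm10) gave exon lengths, overlaps and coordinates, and 19959 of 20484 symbols matched. Promoters came from RefSeq on GRCm38.p6. Of the 20 alternatives, 18 were planned and 2, removal of the length trend and of genes listed at 0, were chosen after the data were seen.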

Additional observations from a re-analysis of the deposited data

How the results depend on the processing

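Egr1 and Ccr2 kept their calls in all 20 alternatives, and no called gene reversed in any. The counts of 9 genes higher and 8 lower moved more. With a pseudocount of 0.1 there were 8 higher and 4 lower, and with a pseudocount of 5 there were 8 and 40. With no filter on low values there were 3 and 4, with upper-quartile scaling 6 and 3, with TPM scaling 10 and 4, and with only the DMSO and RVX-208 libraries in the fit 4 and 3. Removing the length trend gave 72 and 109. Leaving out 1 library at a time gave 3 to 625 genes higher and 3 to 360 lower, and the highest counts came without DMSO library 2. Genes listed at 0 left out, the counts were 6 and 6, with Srm added. The cause of these moves was not tested, but fewer genes or libraries enter some of these fits. With the replicate number as a replicate block, 13 genes were higher and 20 lower, among them all 17 called without it. The labels do not say that a number marks shared cultures, and deviations of the same-numbered DMSO and RVX-208 libraries correlated at -0.0845. Those of DMSO and BBC1115 correlated at 0.524 and those of the other 4 pairs of groups at -0.0341 to 0.0551, so the numbers are not taken to pair the samples. Depth limits genes near 1 RPKM, and with 2 libraries a group, changes under about 0.24 on the log2 scale lay within the interval of most genes.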

Other observations

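Stress and cell cycle lists not described in the report gave 0 called genes in the limma test against DMSO, in which 0.17% of kept genes were called. The medians of the 56 DNA replication and 47 mitosis genes were -0.003 and 0.08. Cdt1, which loads replication helicases, was at 35.1 and 35.7 RPKM in DMSO and at 28.8 and 27.2 RPKM in RVX-208 (log2 fold change -0.33, adjusted p = 0.126). Rfc4 was listed at 0 in DMSO library 2 and was at 32.7 RPKM in DMSO library 1 and at 36.9 and 25.8 RPKM in RVX-208. The 31 p53 and apoptosis genes had a median of 0.03, the 25 interferon genes 0.04, the 22 NF-kB and inflammatory genes 0.10, the 28 NRF2 and glutathione genes 0.02 and the 45 autophagy and lysosome genes 0.04. The 28 ATF4 and amino acid genes had a median of -0.05, the 22 unfolded protein response genes -0.02, the 20 heat shock genes -0.06, the 22 glycolysis genes -0.07 and the 16 stem and progenitor genes -0.08. With TPM scaling the medians of the heat shock, glycolysis, ATF4, unfolded protein response, DNA replication and stem cell lists were above 0. The median of all kept genes was then 0.109, and each of these lists stayed below it, the highest being DNA replication at 0.0911. With quantile normalization the medians of the interferon and p53 lists were below 0, and that of all kept genes was 0.00876.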
